A study of Mus musculus with 22 samples.

Results

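GABA-A receptors are pentameric chloride channels that open when the inhibitory transmitter GABA binds, and each is built from alpha, beta and usually gamma subunits encoded by separate genes. The 7 subunit genes described here are Gabra2, Gabra3, Gabra4 and Gabra5 (alpha subunits), Gabrb1 and Gabrb2 (beta subunits) and Gabrg1 (a gamma subunit), taken by gene symbol from a table of 17306 genes. All 7 were found and all 7 passed the filter on low values that left 16765 genes for testing. They are 7 of the 15 GABA-A and GABA-rho subunit genes in the table, of 19 genes looked for. GABA binds at the junction of alpha and beta subunits, benzodiazepines bind at the junction of alpha and gamma subunits, and the alpha subunit decides much of a receptor's kinetics and drug response. In the spinal dorsal horn these receptors damp the relay of noxious input, and receptors with alpha2 or alpha3 subunits are known targets of benzodiazepine-like drugs that relieve pain in rodents.

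RNA was sequenced from lumbar (L4-L6) spinal cord of 22 wildtype C57BL6J mice aged 12 to 14 weeks, all of which had received 1 mg of monoiodoacetate (MIA) in a knee joint, a glycolysis inhibitor that causes lasting joint pain. According to the study, the tissue was the dorsal horn quadrant on the injured side, and the mice of its early and late experiment were male. SAFit2, an inhibitor of the stress-regulated co-chaperone FKBP51, was given at 100 mg/kg in a slow-release vesicular phospholipid gel, and Vehicle mice received the gel without drug. Gel was injected on days -3 and 4 in the early groups (5 SAFit2 and 6 Vehicle mice) and on days 20 and 27 in the late groups (5 SAFit2 and 6 Vehicle mice), with collection on day 30. There was no group without MIA. The labels mark early and late mice as different batches, so timing and batch cannot be told apart, and comparisons of SAFit2 with Vehicle were made within a timing. The 5 Early SAFit2 mice are titled SAFit1 but labelled SAFit2 by treatment, and the treatment label was used. Also, the days of the early gel are those of the series' design, as the treatment protocol gives days 3 and 4. Levels are log2 CPM (read counts normalized for library size, as log2) at a depth of 11352989 to 24433349 reads on genes per library. In bulk tissue, fewer cells of a type and less RNA per cell cannot be told apart. Neuronal markers were plentiful in all libraries, at a summed level of 7390 to 14700 CPM over 10 genes.

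The alpha members differ at the residue on which classical benzodiazepine binding depends, and the 51 coding bases around its codon are shown to place each gene in its pharmacological class. The stretches come from the longest coding transcript of GENCODE M21 (GRCm38), run 5′ to 3′ on the coding strand, and carry that codon in capitals.
Gabra2: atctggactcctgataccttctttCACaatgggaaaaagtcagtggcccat
Gabra3: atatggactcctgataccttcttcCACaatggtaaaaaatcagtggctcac
Gabra5: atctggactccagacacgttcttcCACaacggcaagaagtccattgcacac
Gabra4: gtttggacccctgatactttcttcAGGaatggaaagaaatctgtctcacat
The capital codon encodes histidine in Gabra2 (codon 129 of 451), Gabra3 (codon 154 of 492) and Gabra5 (codon 136 of 463). In Gabra4 (codon 135 of 552) it encodes arginine, the residue of benzodiazepine-insensitive alpha subunits. The beta subunits complete the GABA site, and gamma1 is the gamma subunit of a minority of receptors.

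Late SAFit2 was the comparison in which the subunits moved most. SAFit2 mice had higher levels than Vehicle mice for 4 of the 7 members and lower levels for 0 (limma, Benjamini-Hochberg adjusted p under 0.05 over all genes tested and at least 1.2-fold). By the same rule 12.1% of all genes tested were called, 5.33% as higher. The genes called were Gabra5, Gabrg1, Gabrb2 and Gabra2, with rises of 1.31-fold to 1.60-fold. All 7 estimates were above 0, with a median log2 fold change of 0.38 against -0.05 over all genes tested. The members have low transcript GC content, however, and late fold changes fell with GC content across all genes, so values after removal of that trend are given further on.

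**Figure D1:**
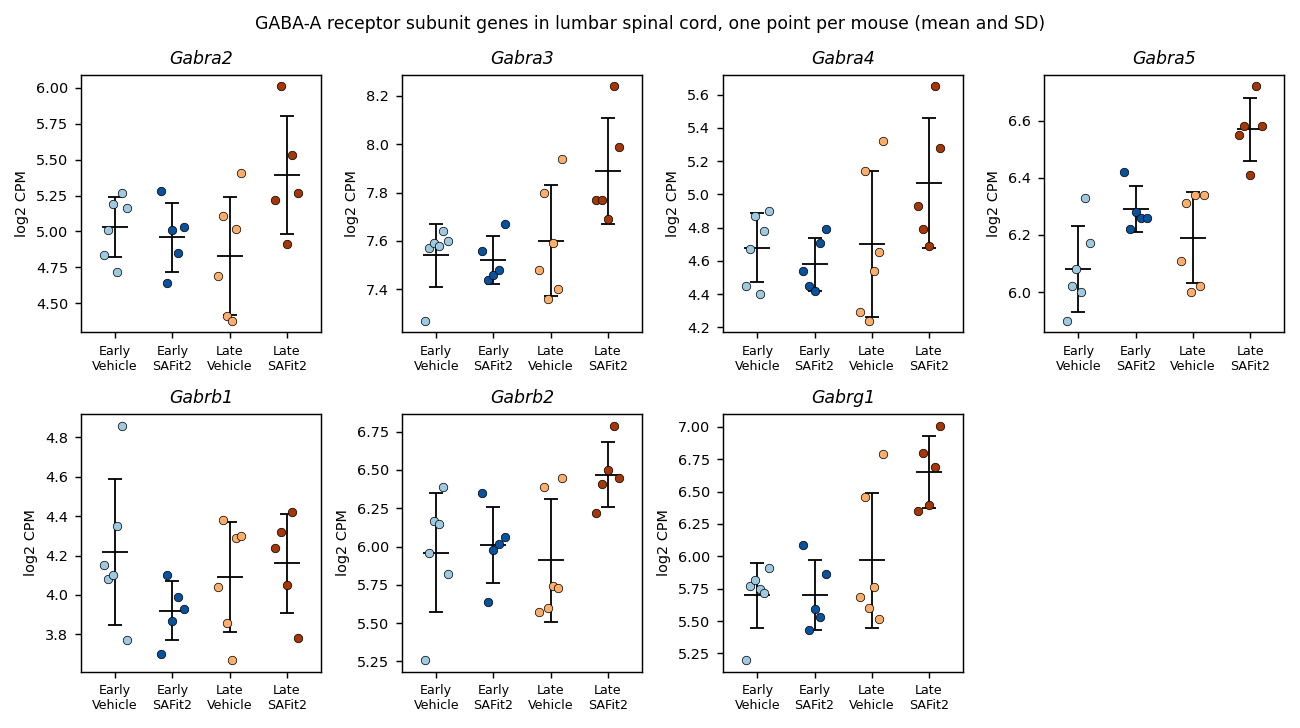
Deposited log2 CPM (y axis) of the 7 subunit genes by group (x axis), each point a mouse, with the group mean and SD as bars, on a separate y range per gene. Gabra5 is the only panel in which all 5 Late SAFit2 mice (6.41 to 6.72) sit above all 6 Late Vehicle mice (6.0 to 6.34).

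Gabra5 encodes the alpha5 subunit, known for receptors outside the synapse that carry a steady inhibitory current. Its level was 6.55, 6.58, 6.41, 6.72 and 6.58 log2 CPM in the 5 Late SAFit2 mice, and in the 6 Late Vehicle mice it ranged from 6.0 to 6.34 with a median of 6.21. Every Late SAFit2 mouse was therefore above every Late Vehicle mouse. Among all genes tested, groups failed to overlap in this direction in 0.853%. The difference was 0.38 on the log2 scale (SE 0.09, adjusted p = 0.032), or 1.31-fold, and the exact permutation p was 0.0022, the smallest that 5 against 6 mice allow. In the early groups, Gabra5 was at 6.42, 6.22, 6.28, 6.26 and 6.26 log2 CPM in SAFit2 mice and at 5.90 to 6.33 (median 6.05) in Vehicle mice. A single Early Vehicle mouse, replicate 5, overlapped the SAFit2 group. The early log2 fold change was 0.20 (SE 0.09, limma p = 0.041, adjusted p = 1.00, exact permutation p = 0.028), which did not pass adjustment. Gabra5 was named by the study from these same mice, so its differences are not independent evidence.

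Gabrg1, the gamma1 subunit gene, had the largest late difference among the members. It stood at 6.35, 6.80, 6.40, 6.69 and 7.01 log2 CPM in Late SAFit2 mice, against 5.52 to 6.79 (median 5.72) in Late Vehicle mice. Late Vehicle mice 2 and 6, at 6.46 and 6.79, lay within the SAFit2 range and the other 4 lay below it. The log2 fold change was 0.68 (SE 0.19, adjusted p = 0.035, exact permutation p = 0.037), or 1.60-fold. The early groups had the same mean of 5.70 log2 CPM, with a log2 fold change of 0.00 (SE 0.19).

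Gabrb2, the beta2 subunit gene, encodes a widely used beta subunit of brain receptors. In Late SAFit2 mice it was at 6.22, 6.41, 6.50, 6.79 and 6.45 log2 CPM. Late Vehicle mice ranged from 5.57 to 6.45 with a median of 5.74, and replicates 2 and 6 again reached the SAFit2 range. The difference was 0.56 (SE 0.18, adjusted p = 0.0464, exact permutation p = 0.028), or 1.47-fold. The early log2 fold change was 0.05 (SE 0.18).

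Gabra2, whose alpha2 subunit is found at dorsal horn synapses, was at 5.22, 6.01, 4.91, 5.53 and 5.27 log2 CPM in Late SAFit2 mice. Late Vehicle mice covered 4.38 to 5.41 with a median of 4.85, and the groups overlapped in 3 Vehicle and 3 SAFit2 mice. The late difference of 0.55 (SE 0.18, adjusted p = 0.0497) was at the edge of the threshold, and the exact permutation p of 0.056 did not pass. Early SAFit2 mice were 0.07 lower in the mean (SE 0.18).

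The other 3 members were not called in the late comparison. Gabra3, the alpha3 gene, had a late log2 fold change of 0.30 (SE 0.11, adjusted p = 0.072, exact permutation p = 0.065), with 7.69 to 8.24 log2 CPM in SAFit2 and 7.36 to 7.94 in Vehicle mice. Gabra4, which encodes the benzodiazepine-insensitive alpha4 subunit, had 0.37 (SE 0.19, adjusted p = 0.16). Gabrb1, the beta1 gene, had 0.07 (SE 0.17, adjusted p = 0.79), with a 95% interval of -0.28 to 0.42.

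**Figure D2:**
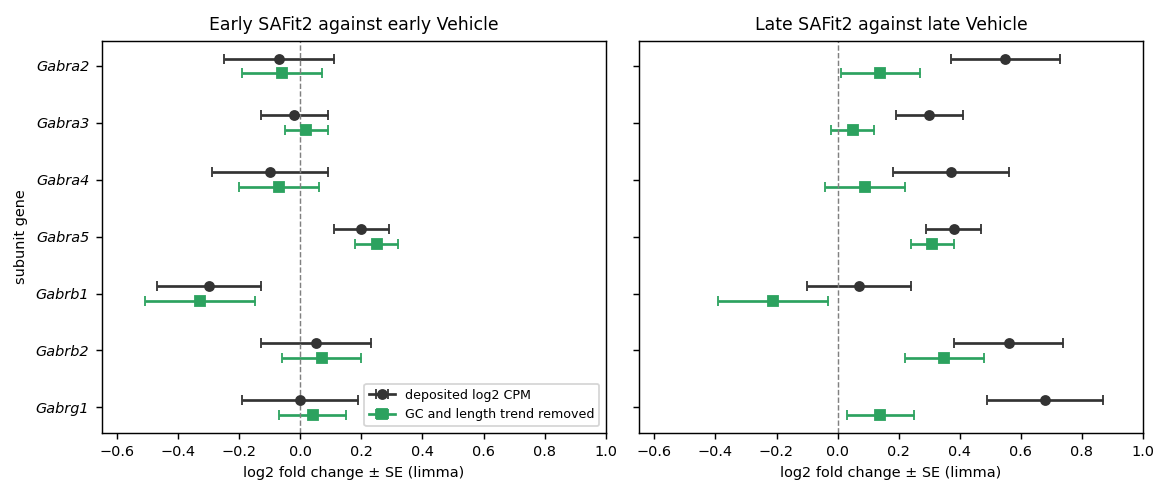
Log2 fold change of SAFit2 against Vehicle (x axis, limma estimate ± SE) for each subunit gene (y axis), early mice left and late mice right, from the deposited values (circles) and after removal of each library's GC and length trend (squares). In late mice Gabra5 moves from 0.38 to 0.31 and Gabrg1 from 0.68 to 0.14.

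GC content was followed because it tracked the late comparison across the whole table. Transcript GC content of the members ranged from 35.3% (Gabrg1) to 47.1% (Gabra5), below the median of 50.1% over genes tested. Across 16208 genes, GC content and the late log2 fold change had a Pearson r of -0.62, and the early one an r of 0.11. These r are across genes, which share libraries and are not replicates. Of the 5421 genes within the members' GC range, 14.7% were called higher in the late comparison and their median log2 fold change was 0.28. The GC slope of a library, which is the change of log2 CPM per 10% GC relative to the mean library, was -0.49 to -0.05 in Late SAFit2 and -0.33 to 0.50 in Late Vehicle mice (exact permutation p = 0.028). Late Vehicle mice 2 and 6 had slopes of -0.17 and -0.33, below 0 as in all 5 Late SAFit2 mice. They were the 2 Late Vehicle mice within the SAFit2 range of Gabrg1 and Gabrb2, while for Gabra2 replicate 5 (slope 0.40) also reached it and for Gabra5 no Vehicle mouse did. Replicate 6 was among the 2 highest Late Vehicle mice for 7 of 7 members and replicate 2 for 6 of 7. The share of reads from Bc1 and mitochondrially encoded genes also moved, at 16.0% to 31.4% in Late SAFit2 and 8.15% to 21.4% in Late Vehicle mice (exact permutation p = 0.017). What GC content or this share contributes to the subunit levels cannot be told apart from treatment in the late mice.

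**Figure D3:**
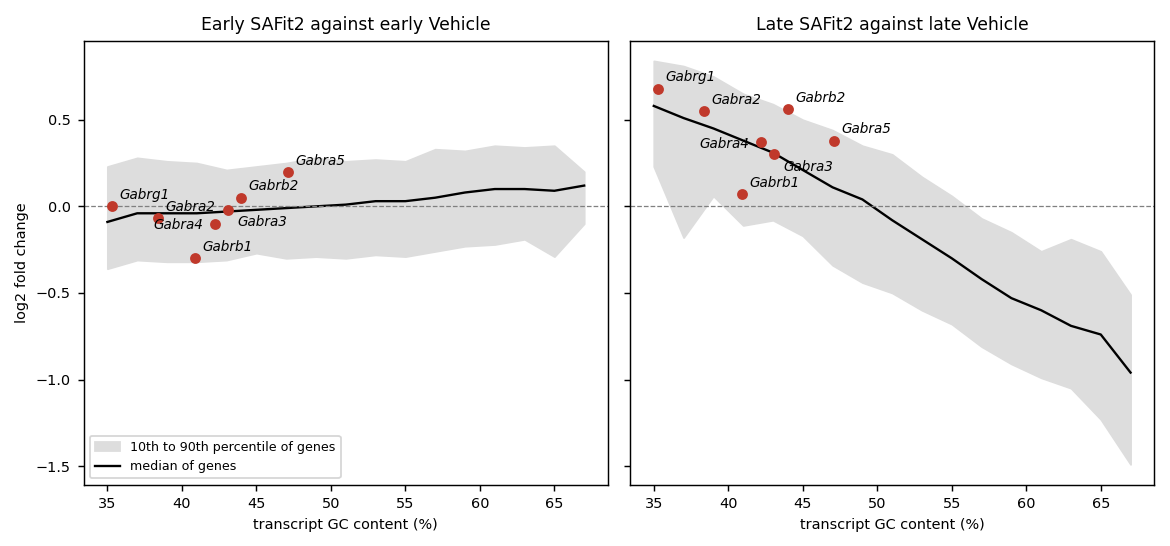
Log2 fold change of SAFit2 against Vehicle (y axis) by transcript GC content in percent (x axis), with the median (line) and the 10th to 90th percentile (grey) of all tested genes in bins 2% wide, and the 7 subunit genes as points. In late mice Gabrg1, Gabra2, Gabra3 and Gabra4 lie near the median of genes of like GC content, Gabra5 and Gabrb2 above it and Gabrb1 below it.

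After each library's smooth trend on GC content and length was removed, 0 of 7 members were called in the late comparison by limma, as were 0.0% of 16208 genes. At an unadjusted p under 0.05, 2 members remained against 15.0% of all genes. Gabra5 kept a log2 fold change of 0.31 (SE 0.07, limma p = 0.00029, adjusted p = 0.12), with 4 of 5 SAFit2 mice above all 6 Vehicle mice and an exact permutation p of 0.0043. Gabrb2 had 0.35 (SE 0.13, limma p = 0.014, adjusted p = 0.22, exact permutation p = 0.03). The late values of Gabrg1 (0.14), Gabra2 (0.14), Gabra4 (0.09) and Gabra3 (0.05) were within 0.14 of 0, and Gabrb1 was at -0.21. If a drug effect runs parallel to GC content, the removal takes it out too. With the GC slope of the library as a covariate instead, the late log2 fold change of Gabra5 was 0.18 (SE 0.09, adjusted p = 1.00) and those of the other members lay between -0.14 and 0.10.

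**Figure D4:**
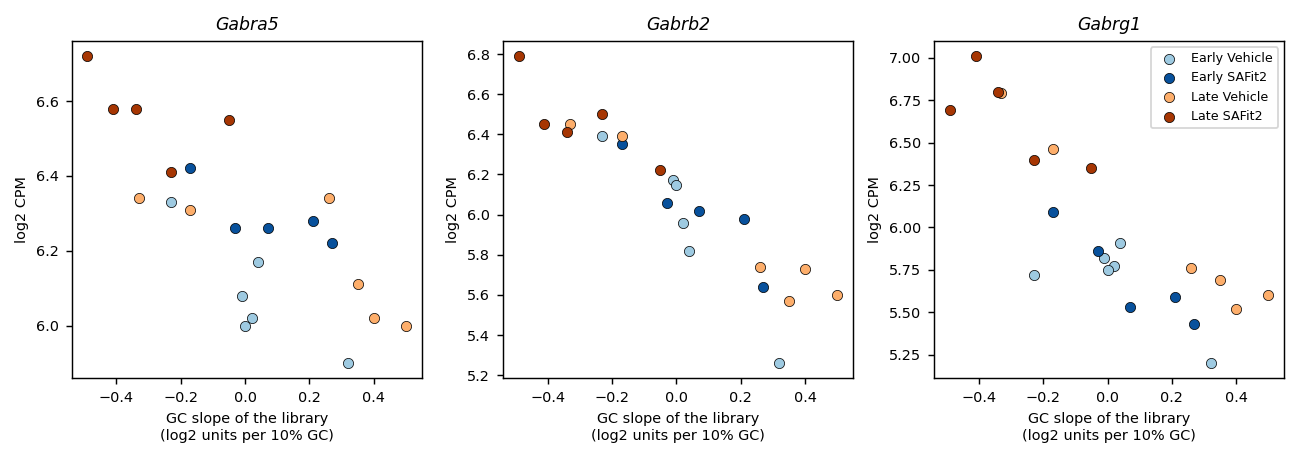
Log2 CPM of Gabra5, Gabrb2 and Gabrg1 (y axis) against the GC slope of each library in log2 units per 10% GC (x axis), each point a mouse and colours marking the 4 groups. For Gabrb2 and Gabrg1, Late Vehicle mice 2 and 6 lie among the Late SAFit2 mice, while for Gabra5 they lie below them at 6.31 and 6.34.

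In the early comparison 0 of 7 members and 0.0% of genes were called. At an unadjusted p under 0.05, 1 member was counted, Gabra5, against 2.48% of genes, and limma voom on the reads gave 0 called and 1 unadjusted. Early estimates ranged from -0.30 for Gabrb1 (SE 0.17) to 0.20 for Gabra5, with 3 of 7 above 0 and a median of -0.02. Gabrb1 was lower in all 5 Early SAFit2 mice (3.70, 4.10, 3.87, 3.99 and 3.93 log2 CPM) than the Vehicle mean of 4.22, but the Vehicle mice ranged from 3.77 to 4.86 and the exact permutation p was 0.11. After removal of the GC and length trend the early log2 fold change of Gabra5 was 0.25 (SE 0.07, limma p = 0.0025, adjusted p = 0.97, exact permutation p = 0.011).

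The mean of the early and late effects was counted at an unadjusted p under 0.05. By this measure 3 of 7 members were higher with SAFit2, against 13.2% of genes in either direction and 6.03% as higher. Of the 8 other subunit genes 1 was counted, as higher. Gabra5 had a mean effect of 0.29 (SE 0.07, limma p = 0.00017, adjusted p = 0.30), with an exact permutation p of 0.00014 from relabelling mice within timing. Gabrg1 (0.34, SE 0.14, limma p = 0.019) and Gabrb2 (0.31, SE 0.13, limma p = 0.025) followed, both with an adjusted p of 0.35 and with exact permutation p of 0.056 and 0.057. After removal of the GC and length trend, where 7.89% of genes were counted, Gabra5 (0.28, adjusted p = 0.22) and Gabrb2 (0.21, adjusted p = 0.59) stayed past this threshold, Gabrg1 (0.09, adjusted p = 0.81) did not and Gabrb1 (-0.27, adjusted p = 0.61) passed it as lower.

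The early effect was then set against the late effect directly. In limma 0 of 7 members and 0.0% of genes passed the adjusted threshold for a difference between them, although all 7 estimates of early minus late were below 0 (median -0.46). At an unadjusted p under 0.05, Gabrg1 (-0.68, SE 0.27, adjusted p = 0.14, exact permutation p = 0.059) and Gabra2 (-0.62, SE 0.26, adjusted p = 0.15, exact permutation p = 0.0486) were counted, against 24.9% of genes. limma voom also gave 0 called and 2 unadjusted. After removal of the GC and length trend the differences were -0.10 and -0.20. For Gabra5 the difference was -0.18 (SE 0.13), with a 95% interval of -0.46 to 0.10.

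Late Vehicle and Early Vehicle mice differed in gel days and in batch. Of the members 0 of 7 were called between them, where 9.11% of genes were, and 0 reached an unadjusted p under 0.05 by limma or by limma voom, where 24.3% of genes did by limma. Estimates ranged from -0.20 (Gabra2) to 0.27 (Gabrg1). After removal of the GC and length trend, Gabrg1 was 0.57 higher in Late Vehicle mice (SE 0.10, adjusted p = 0.00025), and 19.2% of genes were called.

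Levels of different genes were compared per length, as log2 CPM per kb of the longest coding transcript over all 22 mice. Gabra3 led at 5.76 ± 0.22 (SD, n = 22), followed by Gabra5 at 4.85 ± 0.22, Gabrb2 at 4.08 ± 0.38, Gabrg1 at 3.73 and Gabra4 at 2.71 ± 0.35. Gabra2 was at 2.50 ± 0.37 and Gabrb1, with the longest transcript at 13737 bases, at 0.32 ± 0.28. Gabra3, Gabra5 and Gabrb1 held their places in 22 of 22 mice. Neighbours Gabrb2 and Gabrg1 differed by 0.35 ± 0.30 (SD) and Gabra4 and Gabra2 by 0.22 ± 0.30, each with the upper gene higher in 19 of 22 mice, so the second pair differed by less than its spread. The order was the same in each of the 4 groups. With the union of exons as length, Gabra2 and Gabra4 changed places in all groups but Late Vehicle, where they were at 1.90 and 2.09 log2 CPM per kb, and the other 5 members kept their places.

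**Figure D5:**
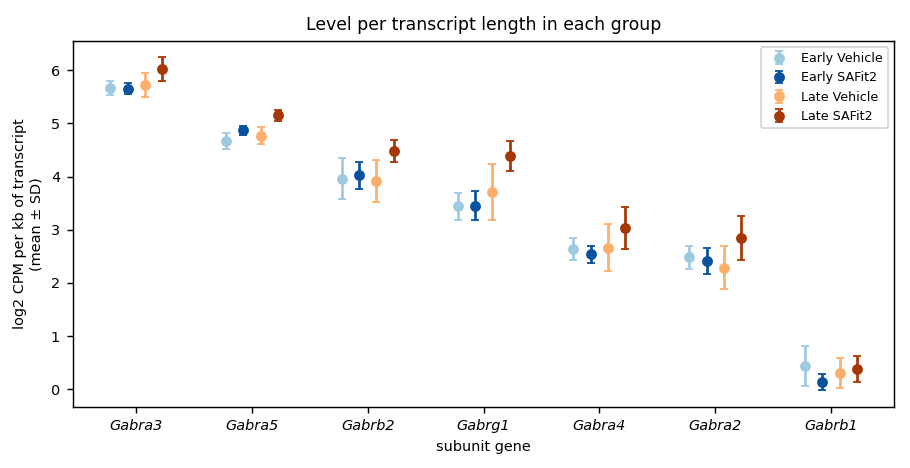
Level per length (y axis, log2 CPM per kb of the longest coding transcript) of the 7 subunit genes (x axis, in order of level), as mean ± SD of the mice of each group. The order from Gabra3 to Gabrb1 is the same in all 4 groups.

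The other 8 subunit genes in the table were tested alongside, and 0 of them were called in the late comparison. Among them, Gabrg3, Gabrd, Gabre, Gabrq and Gabrr2 had few reads, with group means between -0.69 and 1.38 log2 CPM and 0 to 102 reads per library.

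Genes that assemble, traffic and cluster the receptor were examined next. Of 24 such genes 6 were lower in Late SAFit2 mice, against 6.72% of all genes tested, 0 were higher, and the list's median of -0.01 was near that of all genes. The 3 of lowest p were Mdga1, which encodes a binder of neuroligin-2 (-0.91, SE 0.25, adjusted p = 0.035), Insyn1, which encodes an inhibitory postsynaptic protein (-0.71, SE 0.21, adjusted p = 0.038), and Trak1, which encodes a transport adaptor (-0.42, SE 0.12, adjusted p = 0.038). After removal of the GC and length trend they were at -0.33, 0.00 and 0.03, and 0 of 24 were called. Of 8 genes for making, loading, taking up and breaking down GABA, 1 was lower. This was Slc32a1, the vesicular GABA transporter (-0.55, SE 0.18, adjusted p = 0.0456), at 0.13 after removal of the trend. Gad1 (0.01, SE 0.12) and Gad2 (0.13, SE 0.18), which make GABA, were not called.

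The chloride gradient sets the direction of GABA-A receptor current, and 4 of 5 genes of that list were called in late mice, where 12.1% of all genes tested were. Slc12a2, which encodes the chloride importer NKCC1, was 0.41 higher (SE 0.12, adjusted p = 0.039) in Late SAFit2 mice. The chloride extruder gene Slc12a5 (KCC2) was 0.50 lower (SE 0.15, adjusted p = 0.04), as were the channel gene Clcn2 (log2 fold change -0.59, SE 0.17, adjusted p = 0.035) and the exchanger gene Slc4a3 (-0.69, SE 0.21). After removal of the GC and length trend 0 of the 5 were called, with Slc12a2 at 0.23, Slc12a5 at 0.05, Clcn2 at -0.16 and Slc4a3 at -0.27. In the early comparison 0 genes of these 3 lists were called.

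Over the 22 mice, with group means removed, the members' levels varied together to unlike degrees. Pearson r between pairs ran from 0.06 (Gabrb1 and Gabrg1) to 0.88 (Gabra3 and Gabra4), and all 6 pairs with Gabrb1 were at 0.40 or below. The points share library depth and the GC slope of each library. Among 16758 other genes the closest to each member were Kcnj16 for Gabra2 (r = 0.96), Kcnd2 for Gabra3 (0.94), Chl1 for Gabra4 (0.89), Ppp2r3a for Gabra5 (0.88), Chka for Gabrb1 (0.77), Rab10 for Gabrb2 (0.94) and Olfm3 for Gabrg1 (0.96). The mean of the standardized members was closest to Eps15, Tmem33, Bmi1, Tmem47 and Map2 (r of 0.94 to 0.96). Transcript GC content of these 5 genes was 37.4% to 47.8%. Of the 7 genes closest to single members, Chka was at 53.2%, above the median of 50.1%, and the others were below it.

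In the genome (GRCm38), 4 of the members form a cluster on chromosome 5. Gabrg1 (70751047 to 70842617), Gabra2 (70957597 to 71095849) and Gabra4 (71569749 to 71658308) lie on the minus strand and Gabrb1 (71658113 to 72149037) on the plus strand. Gabra4 and Gabrb1 start 196 bases apart and share 46 exon bases on opposite strands, which is 0.756% of the Gabra4 exons. Neither was called in late mice, and their r over mice was 0.25. Gabra3 lies on chromosome X (72432681 to 72656848), Gabra5 on chromosome 7 (57407672 to 57510059), and Gabrb2 on chromosome 11 (42419757 to 42629028). Gabra5 shares 148 exon bases (4.98%) with Gm9962 on the opposite strand. Gm9962 had few reads (median 0.85 log2 CPM) and a late log2 fold change of -0.11 (SE 0.39), and the strand setting of the read counter is not given in the sources used here.

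Promoters of the 4 genes called in late mice are shown because these genes moved in the same direction. Each spans 250 bases before to 50 after the start, from RefSeq on GRCm38.p6 and 5′ to 3′ on the gene's strand. Capitals mark a GC box (GGGCGG on either strand) or a TATA box (TATAAA on either strand).
Gabra5, chr7:57510010-57510309, minus strand: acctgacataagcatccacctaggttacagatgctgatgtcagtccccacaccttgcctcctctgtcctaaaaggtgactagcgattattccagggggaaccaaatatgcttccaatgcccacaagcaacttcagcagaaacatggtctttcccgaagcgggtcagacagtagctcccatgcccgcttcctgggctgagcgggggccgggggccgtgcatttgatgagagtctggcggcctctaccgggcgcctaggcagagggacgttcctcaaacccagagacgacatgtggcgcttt
Gabrg1, chr5:70842568-70842867, minus strand: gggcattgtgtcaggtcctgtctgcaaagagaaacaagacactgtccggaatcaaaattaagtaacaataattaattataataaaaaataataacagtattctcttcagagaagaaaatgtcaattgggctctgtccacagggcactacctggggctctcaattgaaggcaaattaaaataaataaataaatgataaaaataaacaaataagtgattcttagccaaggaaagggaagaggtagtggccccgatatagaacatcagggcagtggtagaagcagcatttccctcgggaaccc
Gabrb2, chr11:42420190-42420489, plus strand: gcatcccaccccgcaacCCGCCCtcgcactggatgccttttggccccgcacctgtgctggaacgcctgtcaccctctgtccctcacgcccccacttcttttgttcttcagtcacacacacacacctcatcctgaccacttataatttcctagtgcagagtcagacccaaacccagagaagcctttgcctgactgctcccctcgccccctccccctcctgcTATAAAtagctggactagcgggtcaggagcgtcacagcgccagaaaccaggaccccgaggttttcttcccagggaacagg
Gabra2, chr5:71095800-71096099, minus strand: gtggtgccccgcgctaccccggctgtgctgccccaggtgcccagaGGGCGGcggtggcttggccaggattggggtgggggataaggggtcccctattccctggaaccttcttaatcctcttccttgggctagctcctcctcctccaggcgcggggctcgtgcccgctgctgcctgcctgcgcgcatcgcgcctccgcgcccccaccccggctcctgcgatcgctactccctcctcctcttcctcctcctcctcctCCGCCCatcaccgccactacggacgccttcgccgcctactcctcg
The table holds 3 windows for Gabrb2, of which the one with motifs is shown, and the others had 54.7% and 41.0% GC and 9 CG pairs each. GC content of the windows shown was 56.7% for Gabra5, 38.3% for Gabrg1, 59.0% for Gabrb2 and 70.0% for Gabra2, against a median of 52.7% over 32851 promoters. Gabra5 held 13 CG pairs, Gabrg1 3, Gabrb2 11 and Gabra2 25, where the median was 7. All 7 members had a promoter in the table and 11 windows in all. A GC box was found in windows of Gabra2, Gabra4 and Gabrb2 and in 35.7% of all promoters, and a TATA box in windows of Gabra3 and Gabrb2 and in 13.6%. FKBP51 is known as a regulator of the glucocorticoid receptor, so its binding element was looked for on both strands, as AGAACA and TGTTCT with any 3 bases between them, and was found in 0 of the 11 windows and in 0.00913% of all promoters. The cAMP response element TGACGTCA (1.79% of promoters), the E-box CACGTG (7.15%) and the Egr site GCGTGGGCG (0.612%) were also found in 0 of 11. These letters alone say nothing of whether a factor binds. The glucocorticoid receptor element was so rare among all promoters that its absence from 11 windows is uninformative.

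The late calls were sensitive to leaving out single mice, while the log2 fold changes kept their sign for all members but Gabrb1 (-0.01 to 0.17). Without Late SAFit2 replicate 2, 4 or 5, or without Late Vehicle replicate 1, 3, 4 or 5, 0 members were called, and the genes called over the whole table fell from 2021 to between 1 and 8. Without Late Vehicle replicate 2 or 6 the count of members called rose to 5 and 6, and the genes called over the whole table rose to 3790 and 4971. Gabra2 and Gabrb2 also lost their calls without Early SAFit2 replicate 3, 4 or 5 or Early Vehicle replicate 2, 3 or 6. Over the 22 fits without a library the late log2 fold change of Gabra5 stayed between 0.35 and 0.42, that of Gabrg1 between 0.59 and 0.84, that of Gabrb2 between 0.48 and 0.67 and that of Gabra2 between 0.40 and 0.67. In the mean of both effects, Gabra5 and Gabrg1 were counted in all 22 of these fits, while Gabrb2 was not counted without Early SAFit2 replicate 1, Early Vehicle replicate 1 or Late SAFit2 replicate 4 (limma p up to 0.055).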

How the data were processed

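RNA from lumbar spinal cord of 22 mice was made into strand-specific mRNA libraries and sequenced as paired-end reads. According to the labels and methods, the authors trimmed reads with Trimmomatic, aligned them to mm10 with HISAT2, counted them per gene with featureCounts and scaled library sizes by the trimmed mean of M-values in edgeR, with versions not given in the sources used here. The deposited values are log2 CPM, with a floor of -3.154, and 100.0% of them came out as whole reads when worked back (tolerance 0.02 reads).

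Genes with at least -1 log2 CPM in 5 libraries were tested with limma 3.58.1 in R 4.3.3 on the deposited values, fitting 4 group means and a variance trend. Calls needed an adjusted p under 0.05 and 1.2-fold. The mean of both effects was called at an unadjusted p under 0.05. Exact permutation tests of single genes were two-sided and used every split of the mice, or every relabelling within timing. Replicates are separate mice. GC content and length came from GENCODE M21 for 16693 genes (96.5%), and trends were removed by loess (span 0.5). The late fit was also run on simulated data. The changes planted there were larger than those of the members, so it does not show how changes of their size are recovered. Tables and plots were made in Python 3.11.15 with pandas 2.3.3, numpy 2.4.6 and matplotlib 3.10.9. The members and the gene lists were chosen with earlier results of these data known. All members are named, as are other subunits above 3 log2 CPM or called (not reported here), and the 3 genes of lowest p called in each other list. Replicate numbers were not taken as pairing the mice in the main fits. Library sizes without Bc1 and mitochondrial genes were chosen as an alternative after seeing the data. Low counts carry more counting error, and 5 or 6 mice limit the precision of each mean.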

Additional observations from a re-analysis of the deposited data

Results flagged for a closer look

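Of 28 sets of values looked at, each a member in a group of mice, 2 held a mouse far from the others of its group, and chance alone gives about 1 in 20. Both were Early Vehicle replicate 1, the lowest of its 6 mice at 7.27 log2 CPM for Gabra3 (gap of 0.80 of the group's range) and at 5.20 log2 CPM for Gabrg1 (0.73 of the range). The GC slope of that library was 0.32, the highest in its group. The early log2 fold changes ranged over the fits without a library from -0.07 to 0.00 for Gabra3 and from -0.10 to 0.07 for Gabrg1.

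The early and late effects differed in limma at an unadjusted p under 0.05 for Gabra2, with an early minus late effect of -0.62 (adjusted p = 0.15, permutation p = 0.0486 over exact relabellings within timing), and for Gabrg1, with -0.68 (adjusted p = 0.14, permutation p = 0.059 over exact relabellings). Neither passed adjustment, and after removal of the GC and length trend the values were -0.20 and -0.10. Timing and batch cannot be told apart in them.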

How the results depend on the processing

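The late count of 4 members called became 0 without a variance trend, with the late mice alone, with the GC and length trend removed (with or without the replicate block) and with the GC slope of the library as a covariate. It became 2 with quantile normalization, with limma voom and with library sizes without Bc1 and mitochondrially encoded genes, and ranged from 0 to 6 over fits without a mouse. The genes called over the whole table moved too, from 2021 in the main late fit to 62 without a variance trend. They were 0 with the late mice alone or with either GC correction. With quantile normalization they were 1231, with limma voom 876 and with the changed library sizes 2093. The mean-effect count of 3 became 5 with library quality weights, 5 with the replicate block and 1 with the GC slope as a covariate, and ranged from 2 to 5 without a mouse. Genes counted over the whole table went from 2215 to 6396, 3135 and 907 in these 3 fits. For the early minus late effect the count of 0 became 5 with quality weights and 2 with the replicate block, and ranged from 0 to 2 without a mouse. Genes called over the whole table went from 0 to 5082 with quality weights and to 1785 with the replicate block. For Late against Early Vehicle the member count of 0 became 1 with quality weights, with the GC and length trend removed and with the GC slope as a covariate. Genes called there went from 1527 to 5067, 3109 and 2286, and no replicate block could be fitted. The early count was 0 under all 38 alternatives. The cause of these moves was not tested, and the fits that leave mice out also hold fewer samples. The replicate block and library quality weights each gave a late count of 6, while 4219 and 6381 genes were called over the whole table. Between SAFit2 and Vehicle mice of the same timing and number, r with group means removed was -0.236 to 0.317, above 0.1 in 2 of 10 pairs. These r do not settle whether the numbers pair the mice.

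The late log2 fold change of Gabrb2 turned to -0.06 with the GC slope as a covariate. Gabra5 kept its sign under all 38 alternatives in the early (0.17 to 0.26), late (0.18 to 0.44) and mean effects (0.20 to 0.32), was called in 26 of them in the late comparison and counted in all 38 for the mean effect. Depth limits little here, as the members had 121 to 5166 reads per library.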

Other observations

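Other lists tied to GABA signalling held few calls. Of 5 GABA-B receptor genes 0 were called in the late comparison by limma, among them Gabbr1 (log2 fold change -0.23, SE 0.12) and Gabbr2 (-0.45, SE 0.29), which encode the receptor's subunits. Neurosteroids are natural enhancers of GABA-A receptors, and of the 5 synthesis genes measured, 0 were called in late mice, where Srd5a1 (5-alpha-reductase) had 0.30 (SE 0.14, adjusted p = 0.12) and Akr1c14 0.79 (SE 0.35, adjusted p = 0.11), at 0.44 and 0.35 after removal of the GC and length trend. In the early comparison 0 genes of either list were called.

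Among cell type markers in late mice, 2 of 10 genes common to neurons were higher, Map2 (0.52, SE 0.14, adjusted p = 0.034) and Elavl4 (0.62, SE 0.17, adjusted p = 0.035), and at 0.52 and 0.20 after removal of the GC and length trend. The summed neuronal level was 9220 to 14700 CPM in Late SAFit2 and 8490 to 11100 CPM in Late Vehicle mice. Of 9 markers of inhibitory and 8 of excitatory dorsal horn neurons, 1 each was lower, Slc32a1 and Prrxl1. Fgfr3 of 8 astrocyte markers, Cldn5 of 8 endothelial and mural cell markers (-0.53, SE 0.17) and Foxj1 of 6 ependymal markers (-0.77, SE 0.19) were also lower, and Tnnt3 of 5 skeletal muscle markers was higher (3.30, SE 1.08). Of all genes tested 5.33% were called higher and 6.72% lower. Estimates above 0 numbered 6 of 10 for neurons (median 0.15), 2 of 9 for inhibitory (-0.36) and 3 of 8 for excitatory neurons (-0.05). Astrocytes had 4 of 8 (-0.04) and endothelial and mural cells 2 of 8 (-0.14). Ependymal cells had 0 of 6 (-0.67) and muscle 5 of 5 (2.33). In lists with 0 genes called, Schwann cells and nerve root had 1 of 6 (-0.70) and oligodendrocyte precursors 2 of 6 (-0.25). Motor neurons had 3 of 6 (-0.07), oligodendrocytes 3 of 8 (-0.05) and microglia 4 of 8 (0.02). Blood had 1 of 4 (-0.22) and sensory neurons of the dorsal root ganglion 1 of 2 (-0.19). With the GC and length trend removed, Prrxl1 was at -0.65, Fgfr3 at -0.09, Cldn5 at 0.01, Foxj1 at -0.12 and Tnnt3 at 3.45, with 0 of these genes called. In the mean of both effects all 6 ependymal markers were counted as lower (unadjusted limma p under 0.05), with a median of -1.42. By that measure 13.2% of all genes tested were counted in either direction. Skeletal muscle markers reached 196 CPM in a Late SAFit2 library and at most 8.92 CPM in any library of the other groups. The part of cell makeup in the subunit values was not tested.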
